A study of Mus musculus with 6 samples.

Results

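The genes described here are 10 enzymes and helper proteins that make leukotrienes, prostaglandins and thromboxane: Pla2g4a, Alox5, Alox5ap, Lta4h, Ltc4s, Alox15, Ptgs1, Ptgs2, Hpgds and Tbxas1. They were chosen as a fixed list of symbols. All 10 were among the 20097 genes listed in the deposited tables, and all 10 entered the test over 15410 genes. Their RNA was measured by poly-A sequencing in mouse c-Kit+ bone marrow cells, which carry the stem cell factor receptor and include many blood progenitors. The comparison is between 3 libraries labelled with the genotype WT and 3 labelled Runx1 KO, a knockout of the gene for the transcription factor RUNX1. No treatment is given for either group, and the sources used here do not give age, sex or strain, or how, when and in which cells Runx1 was disrupted. The labels do not say that libraries of a group came from separate mice, so p-values measure the spread between these libraries, which may be technical.

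Eicosanoids are signalling lipids made from arachidonic acid, which phospholipases cut out of membrane phospholipids. Lipoxygenases turn it into leukotrienes and hydroxylated fatty acids, while cyclooxygenases turn it into prostaglandin H2, from which further enzymes make the prostaglandins and thromboxane. In blood, leukotrienes come mainly from granulocytes, monocytes and mast cells, thromboxane from platelets and macrophages, and prostaglandin E2 is known to act on blood stem and progenitor cells.

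The libraries held from 23297526 to 26793380 recovered reads, meaning deposited values turned back into whole reads. Values are given below as normalised read counts, which are those reads divided by a size factor per library of 0.956 to 1.04. Runx1 itself did not fall: it stood at 3109 ± 356 normalised reads in WT and 6399 ± 494 in Runx1 KO (SD, n = 3 each), at an adjusted p of 0.00163 in limma. That direction goes against the label, although values per gene do not show whether an exon was missing. Groups are therefore named by their labels throughout. Kit, the receptor used for the sort, was present in every library, from 7979 to 13684 normalised reads.

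Of the 10 genes, 4 differed between the groups at a limma adjusted p under 0.05, with 3 lower (Alox5, Lta4h and Alox15) and 1 higher (Tbxas1) in the libraries labelled Runx1 KO. Over all genes tested, 21.9% passed the same threshold, 10.6% higher and 11.3% lower. The edgeR test on recovered reads also called 4 of the 10, against 21.2% of all genes. Changes are given as log2(normalised read count + 1) in Runx1 KO minus WT, a scale that makes the change of weak genes look smaller. The median change of the 10 was -0.34, beside -0.0042 over all genes. The groups did not overlap in 5 of the 10 genes, against 43.3% of all genes tested. Ltc4s is among the 5 but entered the test only through the Runx1 KO libraries, so it adds no support to this count. In bulk samples such as these, fewer cells of a type and less RNA per cell cannot be told apart.

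**Figure D1:**
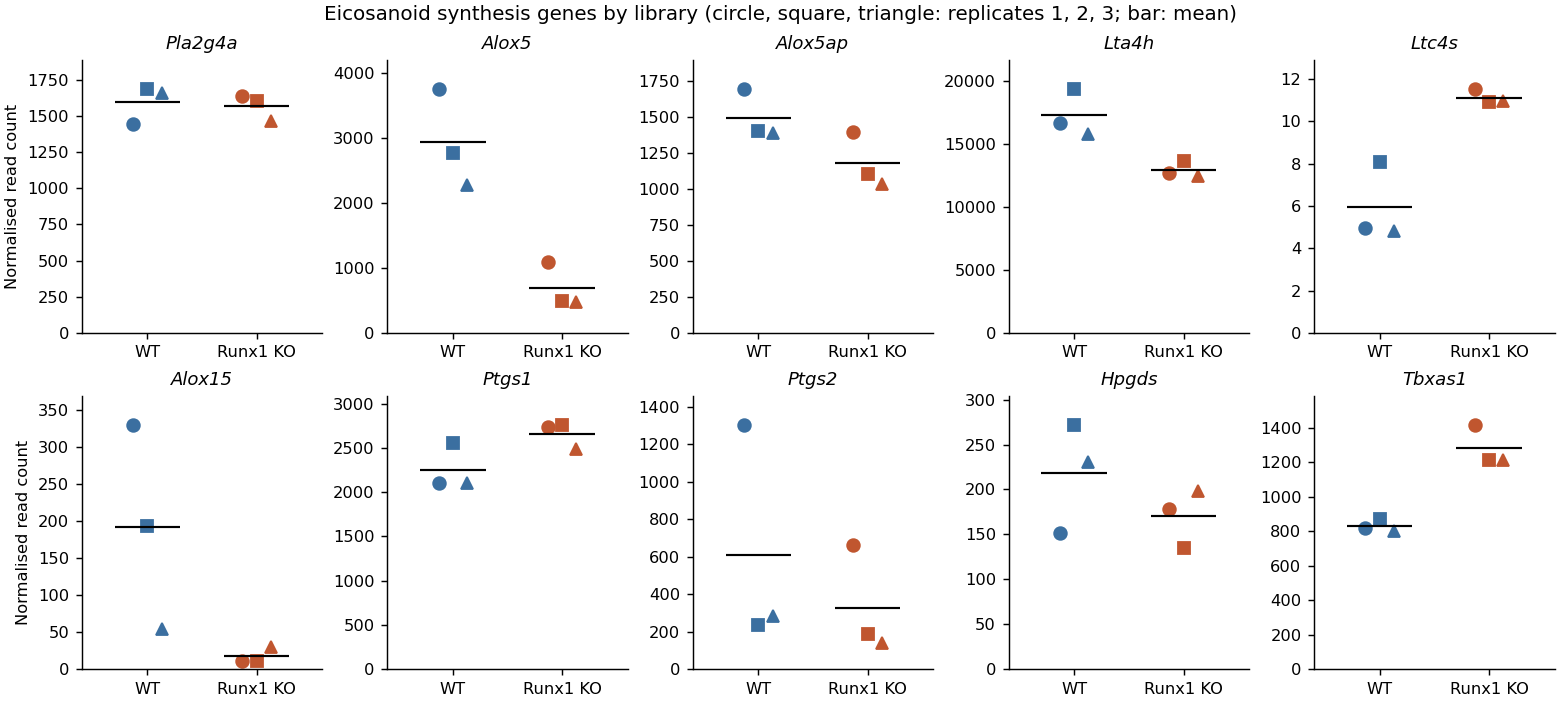
Normalised read count (y axis, from 0, its own scale in each panel) of the 10 genes in the 3 WT libraries (blue) and the 3 Runx1 KO libraries (orange), with the group mean as a bar. Alox5, Lta4h and Alox15 lie lower in every Runx1 KO library than in any WT library, and Tbxas1 and Ltc4s lie higher. Ltc4s entered the test only through the Runx1 KO libraries. Ptgs2 is highest in replicate 1 of each group.

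Because the labelled knockout is of a DNA-binding factor, the promoters of the 10 genes were searched for the core letters of the RUNX motif, TGTGGT or its reverse complement ACCACA, and of the GATA motif, AGATAA or its reverse complement TTATCT. The 2 motifs share no overlap in these letters. RefSeq promoter windows on GRCm38.p6, from 250 bases before to 50 bases after a gene's start, were at hand for 8 of the 10 genes, in 9 windows, and not for Alox15 and Alox5ap. A RUNX core match lay in 3 genes (Hpgds, Ltc4s and Ptgs2) and a GATA core match in 0, while 16.8% and 11.2% of all 32851 windows of this length held them. The windows of the lower gene Alox5 and the higher gene Tbxas1, neither with a match, are shown beside those of Ltc4s and Ptgs2, each with a RUNX core match in capitals, 5′ to 3′ on the gene's strand. They lie at chr6:116461129-116461428 (minus strand), chr6:38918736-38919035 (plus), chr11:50238483-50238782 (minus) and chr1:150099781-150100080 (plus). The Tbxas1 window lies inside the longer gene model that GENCODE gives.
Alox5: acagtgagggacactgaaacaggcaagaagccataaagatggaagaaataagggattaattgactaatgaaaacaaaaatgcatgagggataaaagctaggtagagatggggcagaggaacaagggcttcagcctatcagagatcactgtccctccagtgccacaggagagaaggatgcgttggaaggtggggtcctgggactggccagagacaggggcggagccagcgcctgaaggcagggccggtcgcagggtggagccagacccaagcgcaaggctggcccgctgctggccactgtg
Tbxas1: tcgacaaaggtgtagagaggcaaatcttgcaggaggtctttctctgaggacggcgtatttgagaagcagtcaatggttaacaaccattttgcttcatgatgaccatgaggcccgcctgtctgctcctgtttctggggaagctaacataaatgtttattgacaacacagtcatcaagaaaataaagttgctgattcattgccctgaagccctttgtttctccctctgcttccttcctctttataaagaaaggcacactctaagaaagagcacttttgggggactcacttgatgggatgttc
Ltc4s: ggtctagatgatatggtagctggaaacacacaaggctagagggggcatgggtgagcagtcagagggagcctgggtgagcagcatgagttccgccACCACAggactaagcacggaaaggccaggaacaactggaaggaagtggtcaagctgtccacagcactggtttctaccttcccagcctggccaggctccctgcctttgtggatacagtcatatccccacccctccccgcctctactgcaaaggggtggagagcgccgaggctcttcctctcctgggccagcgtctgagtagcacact
Ptgs2: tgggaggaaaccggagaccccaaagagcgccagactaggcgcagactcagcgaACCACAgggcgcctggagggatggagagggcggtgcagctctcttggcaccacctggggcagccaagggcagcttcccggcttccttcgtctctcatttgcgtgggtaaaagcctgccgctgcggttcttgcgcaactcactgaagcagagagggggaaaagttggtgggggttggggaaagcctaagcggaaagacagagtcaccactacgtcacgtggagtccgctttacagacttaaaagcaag
The match began 156 bases before the start in Ltc4s, 197 before it in Ptgs2 and 250 before it in Hpgds. A match is a run of letters and not a measured site, and a window without it says nothing of the factor. Of the 4 genes that passed the test, Alox5, Lta4h and Tbxas1 had a window, with 0 RUNX core matches.

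At the step that releases arachidonic acid, Pla2g4a did not pass the test, while Pla2g6, described below with the wider pathway, passed as higher. Pla2g4a (ENSMUSG00000056220, chromosome 1, 149829618 to 149961290, minus strand of GRCm38, protein coding) encodes cytosolic phospholipase A2, which frees arachidonic acid from membranes when calcium rises. It was read at 1446, 1685 and 1658 in WT replicates 1 to 3 and at 1639, 1606 and 1467 in Runx1 KO replicates 1 to 3. The groups overlapped, with means of 1596 ± 131 and 1571 ± 91.5 (SD, n = 3). The log2 change was -0.02 (SE 0.08, 95% interval -0.22 to 0.17), at an adjusted p of 0.874 in limma.

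The enzyme of the next step was lower. Alox5 (ENSMUSG00000025701, chromosome 6, 116410077 to 116461178, minus strand) encodes 5-lipoxygenase, the enzyme that commits arachidonic acid to leukotriene A4. Its normalised read count was 3746, 2767 and 2280 in the WT libraries and 1090, 483 and 479 in the Runx1 KO libraries. Every WT library lay above every Runx1 KO library, and replicate 1 was the highest of each group. The WT mean of 2931 ± 747 was 4.29 times the Runx1 KO mean of 684 ± 352 (SD, n = 3). Alox5 changed by -2.18 on the log2 scale (SE 0.34, 95% interval -2.98 to -1.38), with an adjusted p of 0.00683 in limma and 0.0105 in edgeR. The call was kept in all 6 fits that left out a library, where the highest limma adjusted p was 0.0317. The summed levels of neutrophil, monocyte, eosinophil, basophil and B lymphoid markers were each also lower in every Runx1 KO library than in any WT library.

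Its partner did not pass the test. Alox5ap (ENSMUSG00000060063, chromosome 5, 149264767 to 149288153, plus strand) encodes the membrane protein that presents arachidonic acid to 5-lipoxygenase. It stood at 1694, 1405 and 1393 in WT and at 1395, 1104 and 1035 in Runx1 KO, so that the highest Runx1 KO library reached into the WT range. The change was -0.35 (SE 0.13, 95% interval -0.66 to -0.04), at an adjusted p of 0.0982 in limma. Without Runx1 KO replicate 1 it was -0.48, at an adjusted p of 0.0247 in limma.

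Leukotriene A4 is then turned into leukotriene B4, an attractant of neutrophils, or into leukotriene C4, a constrictor of smooth muscle. Lta4h (ENSMUSG00000015889, chromosome 10, 93453411 to 93484875, plus strand), the hydrolase of the first route, was read at 16696, 19356 and 15821 in WT and at 12718, 13622 and 12433 in Runx1 KO. No Runx1 KO library reached the lowest WT library. With means of 17291 ± 1841 and 12924 ± 621 (SD, n = 3), WT was 1.34 times Runx1 KO. Lta4h fell by 0.42 on the log2 scale (SE 0.09), with an adjusted p of 0.0171 in limma and 0.0186 in edgeR. The call was lost without Runx1 KO replicate 3, at a limma adjusted p of 0.065 and a change of -0.39.

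Ltc4s (ENSMUSG00000020377, chromosome 11, 50236461 to 50238616, minus strand), the synthase of the other route, was near the detection limit. It had 5, 8 and 5 recovered reads in the WT libraries and 11, 11 and 11 in the Runx1 KO libraries. These are 4.95, 8.07 and 4.80 normalised reads against 11.5, 10.9 and 10.9, and the groups did not overlap. The gene met the filter on low values only in the Runx1 KO libraries, so that it could enter the test only by being higher there. Its change was 0.84 (SE 0.31, 95% interval 0.10 to 1.58) and did not pass, with an adjusted p of 0.0981 in limma and 0.0894 in edgeR. The antisense gene Gm26542 overlaps it over 1664 bases and read 10.2 ± 1.83 in WT and 14.8 ± 3.57 in Runx1 KO (SD, n = 3). Overlaps are measured here over whole gene spans, introns included. The library kit keeps strand, but the strand setting of the counting is not given in the sources used here. Reads of the overlapping pair may therefore have been credited to the wrong gene or left out. The same limit holds for Alox5ap beside Gm19719, for Ptgs1 beside Gm43621 and for Hpgds beside Gm17147.

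Alox15 (ENSMUSG00000018924, chromosome 11, 70344152 to 70352031, minus strand) encodes the mouse 12/15-lipoxygenase, known from eosinophils and macrophages, which makes hydroxylated fatty acids and precursors of lipoxins. It had 329, 194 and 53.7 normalised reads in the WT libraries and 10.5, 10.9 and 29.8 in the Runx1 KO libraries. The groups did not overlap, although WT replicate 3 and Runx1 KO replicate 3 lay close together. The WT mean of 192 ± 138 was 11.3 times the Runx1 KO mean of 17.1 ± 11.1 (SD, n = 3). The log2 change was -3.24 (SE 0.70), with a wide 95% interval of -4.88 to -1.59. Alox15 passed at an adjusted p of 0.0192 in limma and 0.0199 in edgeR. It did not pass without WT replicate 2 (-3.06, limma adjusted p 0.0638) or without Runx1 KO replicate 2 (-3.02, limma adjusted p 0.0735).

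Alox15 belongs to a run of lipoxygenase genes on chromosome 11, and these changed in both directions. Alox12, the platelet-type 12-lipoxygenase, starts 96.7 kb from the start of Alox15 and was read at 13.8, 13.1 and 18.2 in WT and at 176, 103 and 77.6 in Runx1 KO. Alox12 was thus 7.89 times as high in Runx1 KO, a log2 change of 2.83 (SE 0.33) at an adjusted p of 0.00301 in limma. Alox12e, an epidermal-type lipoxygenase that starts 29.4 kb from Alox15, was read at 18.8, 19.2 and 14.4 in WT and at 1.05, 0 and 2.98 in Runx1 KO. Those Runx1 KO values are 1, 0 and 3 recovered reads, beside 19, 19 and 15 in WT. Alox12e met the filter on low values only in the WT libraries, so that it could enter the test only by being higher there, and its call adds no support to the counts that include it. It changed by -3.19 on the log2 scale (SE 0.54, 95% interval -4.45 to -1.92), at an adjusted p of 0.00873 in limma. From 220 kb below to 120 kb above Alox15, 15 of 19 listed genes were tested. Of these, 2 were higher (Alox12 and Slc16a13) and 5 lower (Alox12e, Alox15, Gm12314, Arrb2 and Med11). The shares over all genes tested were 10.6% higher and 11.3% lower in limma. Gm12314 was read at 30.7, 19.2 and 21.1 in WT and at 3.14, 2.97 and 0.995 in Runx1 KO. Like Alox12e, Gm12314 entered the test through WT, so its call adds no support to the count of 5. Arrb2, which encodes beta-arrestin and lies 80.6 kb away, fell from 5057 ± 452 to 2877 ± 299 (SD, n = 3), at an adjusted p of 0.00328 in limma. Lipoxygenases are paralogs, and how reads matching several of them were counted is not given in the sources used here.

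**Figure D2:**
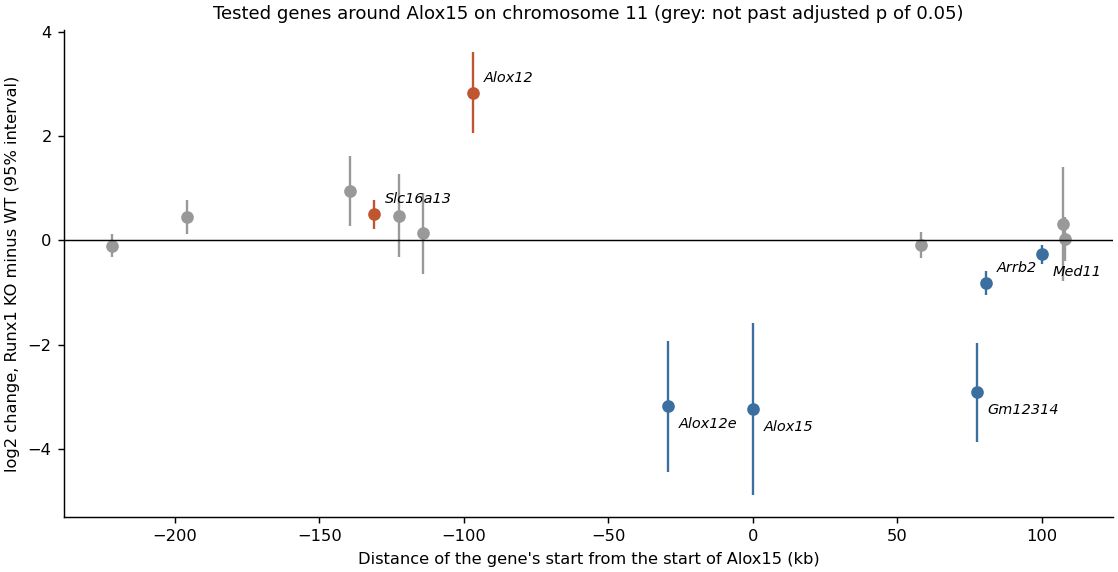
Log2 change, Runx1 KO minus WT (y axis, point with the 95% interval of limma), of the 15 tested genes around Alox15 against the distance of their starts in kb (x axis); orange is higher, blue lower and grey not past an adjusted p of 0.05. Alox12 stands at 2.83, while Alox12e and Alox15 stand at -3.19 and -3.24.

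The cyclooxygenases make prostaglandin H2 from arachidonic acid, Ptgs1 (ENSMUSG00000047250, chromosome 2, 36230426 to 36252272, plus strand) as the form present in resting cells and Ptgs2 (ENSMUSG00000032487, chromosome 1, 150100031 to 150108227, plus strand) as the inducible form. Ptgs1 was read at 2102, 2559 and 2104 in WT and at 2740, 2757 and 2490 in Runx1 KO. WT replicate 2 lay above the lowest Runx1 KO library, and the change of 0.24 (SE 0.09, 95% interval 0.02 to 0.46) did not pass, its adjusted p in limma being 0.102. It passed when libraries were scaled by their totals (0.33, limma adjusted p 0.0384) and without WT replicate 2 (0.34, limma adjusted p 0.0343).

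For Ptgs2 the spread within a group exceeded the difference between the group means. It was read at 1302, 237 and 285 in WT and at 661, 184 and 137 in Runx1 KO. Replicate 1 was the high library of each group, and the groups overlapped. The change was -0.80 with an interval from -2.65 to 1.06 (SE 0.79, limma adjusted p 0.498), and it was -0.02 without WT replicate 1 and -1.48 without Runx1 KO replicate 1. The summed level of 7 B lymphoid markers was also highest in replicate 1 of each group, at 22894 beside 5673 and 9396 in WT and at 2512 beside 1016 and 944 in Runx1 KO. The sum of 5 T lymphoid markers stood at 1453 in WT replicate 1 beside 532 and 764, and at 660 in Runx1 KO replicate 1 beside 141 and 119. Neutrophil and monocyte sums were also highest in replicate 1, at 387123 and 41333 in WT and 213032 and 29920 in Runx1 KO. Among neutrophil markers, Mmp9, chosen after its values were seen, was read at 19490, 4465 and 4174 in WT and at 4864, 1652 and 1808 in Runx1 KO. The part of any of these cells in the level of Ptgs2 was not tested.

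The last steps give each prostanoid its identity. Hpgds (ENSMUSG00000029919, chromosome 6, 65117293 to 65144908, minus strand), the blood-cell form of prostaglandin D2 synthase and a product of mast cells among others, was read at 151, 271 and 231 in WT and at 178, 135 and 198 in Runx1 KO. The groups overlapped, and the change of -0.33 (SE 0.25, 95% interval -0.92 to 0.25) had a limma adjusted p of 0.369.

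Tbxas1 (ENSMUSG00000029925, chromosome 6, 38875404 to 39084585, plus strand), thromboxane A synthase, was the gene that rose. It was read at 821, 873 and 803 in WT and at 1414, 1216 and 1211 in Runx1 KO. All Runx1 KO libraries lay above all WT libraries, with means of 832 ± 36.3 and 1281 ± 116 (SD, n = 3), a ratio of 1.54. The log2 change was 0.62 (SE 0.08, 95% interval 0.42 to 0.82), with an adjusted p of 0.00463 in limma and 0.00551 in edgeR. Tbxas1 was called in all 6 fits without a library, at limma adjusted p values up to 0.0218. Summed megakaryocyte and platelet markers, and summed stem and progenitor markers, were also higher in every Runx1 KO library than in any WT library. Summed monocyte and macrophage markers were lower in every Runx1 KO library. Tbxas1 overlaps Hipk2 on the other strand over 762 bases. Hipk2 stood at 2398 ± 117 in WT and 2665 ± 348 in Runx1 KO (SD, n = 3) and did not pass, its adjusted p in limma being 0.334. On the same other strand lie the antisense genes Gm42962, over 67228 bases, and 1700025N23Rik, over 3721 bases, so the limit on strand holds for Tbxas1 too.

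Compared per length of exon, the genes spanned a wide range. Lta4h led in both groups, at 2834 ± 302 normalised reads per kb in WT and 2118 ± 102 in Runx1 KO (SD, n = 3), followed by Alox5ap at 1054 ± 120 and 830 ± 135. In WT, Alox5 came next at 714 ± 182 and overlapped Ptgs1 at 581 ± 67.8, and Pla2g4a followed at 250 ± 20.4. In Runx1 KO, Ptgs1 (685 ± 38.4) and Pla2g4a (246 ± 14.3) stood above Alox5 (167 ± 85.6), whose libraries then overlapped those of Pla2g4a and of Tbxas1 (141 ± 12.7). In WT, neighbours in the order from Pla2g4a through Ptgs2 (133 ± 131), Tbxas1 (91.5 ± 3.99) and Alox15 (78.4 ± 56.2) to Hpgds (33.9 ± 9.51) overlapped. Ltc4s was the lowest in WT at 5.86 ± 1.82, and Alox15 was the lowest in Runx1 KO at 6.95 ± 4.51, overlapping Ltc4s at 10.96 ± 0.334.

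**Figure D3:**
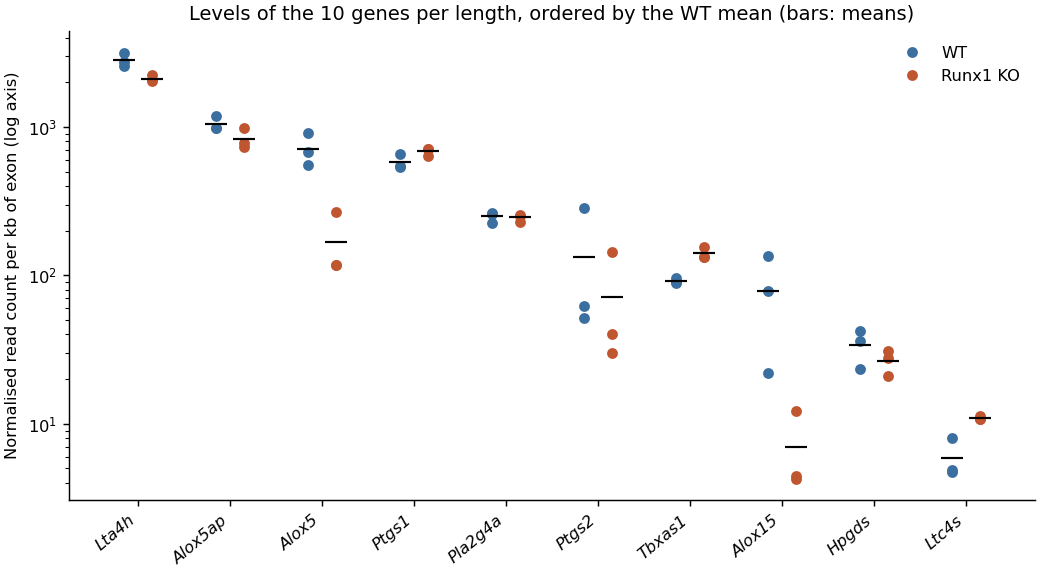
Normalised read count per kb of exon (log y axis) of the 10 genes, ordered by their WT mean, with each WT library (blue) and Runx1 KO library (orange) as a point and the mean as a bar. Lta4h is highest in both groups, and Alox5 drops from 714 per kb in WT to 167 in Runx1 KO.

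A wider list of 62 genes of eicosanoid supply, synthesis, breakdown, transport and reception put the 10 in context. Of these, 56 were listed in the tables and 48 were tested, and 19 passed in limma, 8 higher and 11 lower. Without the 10 synthesis genes, 15 of 38 passed, 7 higher and 8 lower, with a median change of -0.08. Over all genes tested, 21.9% passed in limma, 10.6% higher and 11.3% lower. Alox12e and Ggt1 entered the test through WT, so their calls add no support to these counts. The call was kept in every fit that left out 1 library for 6 of the 15 genes: Alox12, Alox12e, Hpgd, Slco2a1, Ptger3 and Ltb4r1. The other 9 lost it without Runx1 KO replicate 2, where 9 of the 48 genes passed in place of 19, and some also without other libraries. Without Runx1 KO replicate 3, 12 passed. Over all genes tested, the calls fell from 3370 to 1367 without Runx1 KO replicate 2 and to 1767 without Runx1 KO replicate 3.

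**Figure D4:**
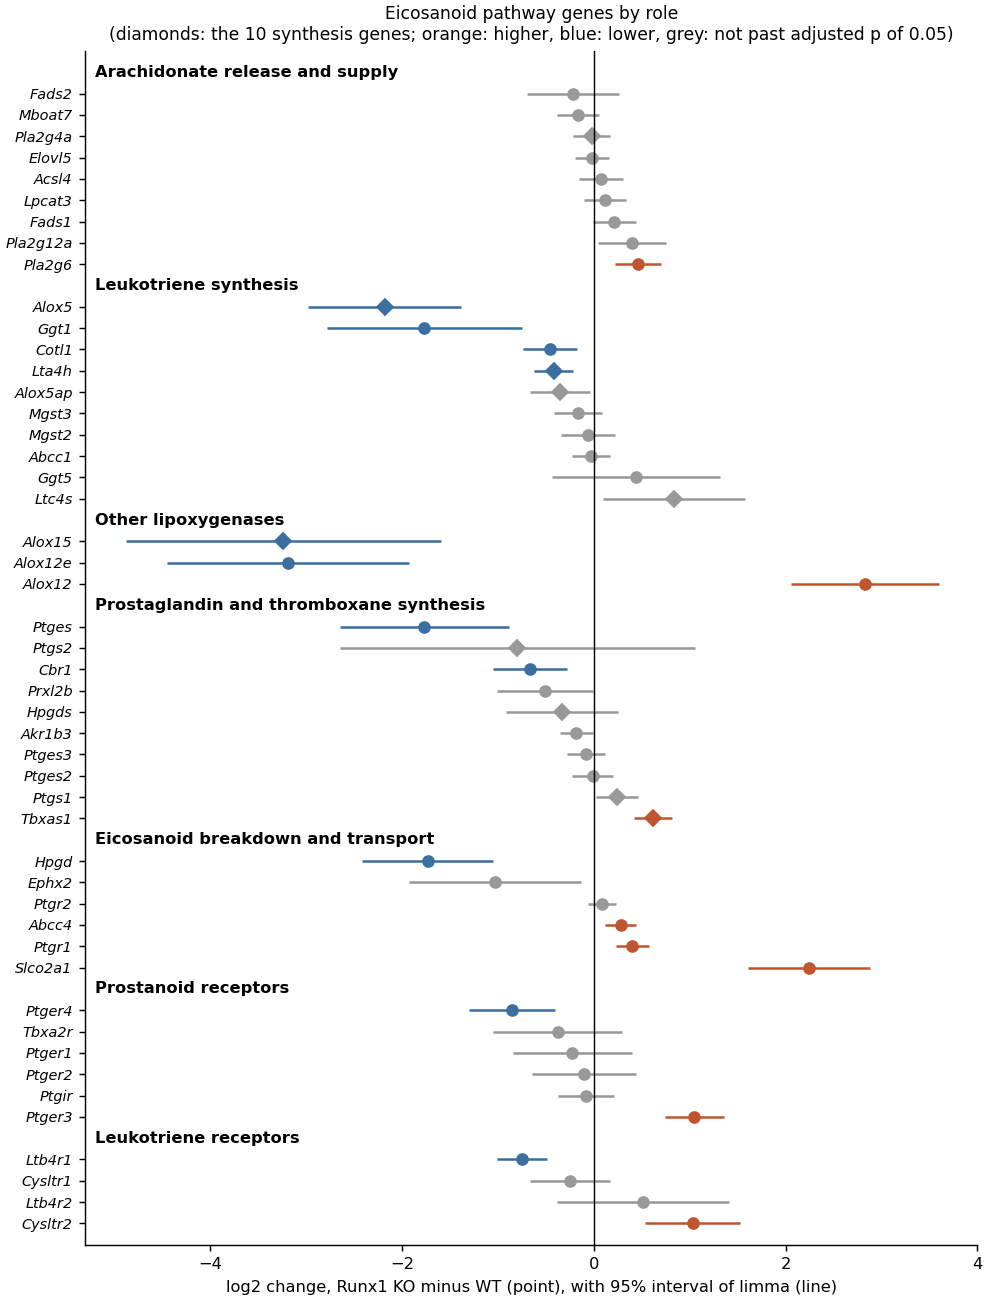
Log2 change, Runx1 KO minus WT (x axis, point with the 95% interval of limma), of the 48 tested genes, grouped by role; diamonds mark the 10 synthesis genes, and orange, blue and grey mark higher, lower and not past an adjusted p of 0.05. In leukotriene synthesis the 4 called genes are all lower, among them Ggt1, which entered the test through WT. Breakdown and transport holds 3 higher and 1 lower, beside 10.6% higher and 11.3% lower over all genes tested.

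Among 9 tested genes of arachidonate release and supply, 1 passed, beside 21.9% of all genes tested. Pla2g6, the calcium-independent phospholipase A2, rose from 435 ± 42.9 to 597 ± 33.4 (SD, n = 3), at an adjusted p of 0.0217 in limma. It lost its call without WT replicate 2 or Runx1 KO replicate 2 or 3. Of 10 leukotriene synthesis genes, 4 passed and all were lower, beside 11.3% lower over all genes tested. Beside Alox5 and Lta4h these were Ggt1, a gamma-glutamyltransferase that trims leukotriene C4, and Cotl1, a protein that binds and stabilises 5-lipoxygenase. Ggt1 fell from 40.5 ± 26.6 to 9.77 ± 0.764 and Cotl1 from 8846 ± 875 to 6487 ± 960 (SD, n = 3), at limma adjusted p values of 0.0288 and 0.0363. Ggt1 lost its call without Runx1 KO replicate 2 or 3, and Cotl1 kept its call in 1 of the 6 fits without a library, that without Runx1 KO replicate 1. Ggt1 met the filter on low values in 3 WT libraries and 1 Runx1 KO library, so it entered the test through WT. Its call adds no support to the count of 4 lower genes.

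Of 10 tested genes of prostaglandin and thromboxane synthesis, 3 passed, beside 21.9% of all genes tested. Tbxas1 went upwards and Ptges and Cbr1 downwards. Ptges, the inducible microsomal prostaglandin E synthase, was read at 169, 90.8 and 79.6 in WT and at 40.8, 35.7 and 19.9 in Runx1 KO, without overlap. Its change was -1.77 (SE 0.38), at an adjusted p of 0.0186 in limma, and the call was lost without Runx1 KO replicate 2 or 3. Cbr1, a carbonyl reductase that converts prostaglandin E2 to F2 alpha, changed by -0.67 (SE 0.16), at an adjusted p of 0.0301 in limma, and kept its call in 2 of the 6 fits.

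In breakdown and transport, 4 of 6 tested genes passed, 3 higher and 1 lower, beside 10.6% higher and 11.3% lower over all genes tested. Hpgd, the dehydrogenase that starts prostaglandin breakdown, was read at 743, 712 and 1062 in WT and at 346, 162 and 272 in Runx1 KO. No library overlapped, and Hpgd changed by -1.73 (SE 0.29), at an adjusted p of 0.00854 in limma. Slco2a1, the prostaglandin importer that feeds this enzyme, moved the other way, from 11.9, 12.1 and 13.4 in WT to 56.5, 87.2 and 49.7 in Runx1 KO. Its change was 2.24 (SE 0.27), at an adjusted p of 0.00327 in limma. Ptgr1, a reductase that acts on leukotriene B4 and prostaglandin metabolites, rose by 0.40 (SE 0.07, limma adjusted p 0.0115), and Abcc4, an exporter of prostaglandins, rose by 0.28 (SE 0.07, limma adjusted p 0.0303). Abcc4 kept its call in 2 of the 6 fits without a library and Ptgr1 in 5. Gm45540 overlaps Hpgd on the same strand over 3606 bases. Whatever the strand setting, reads of that pair may have been credited to the wrong gene or left out.

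Receptors changed in opposite directions within each class. Of 6 tested prostanoid receptors, Ptger3, an inhibitory receptor of prostaglandin E2, rose from 290 ± 43.2 to 598 ± 45.2, and Ptger4, a stimulatory one, fell from 1067 ± 269 to 581 ± 80.8 (SD, n = 3). Their limma adjusted p values were 0.0035 and 0.0216, and Ptger4 lost its call without WT replicate 3 or Runx1 KO replicate 2 or 3. Ptger4 overlaps Ttc33 on the other strand over 11676 bases, so the limit on strand holds for Ptger4 too. Of 4 tested leukotriene receptors, Ltb4r1, the high-affinity receptor of leukotriene B4, fell from 1907 ± 194 to 1135 ± 128, and Cysltr2, a receptor of cysteinyl leukotrienes, rose from 50.1 ± 10.6 to 102 ± 12.9 (SD, n = 3). Their limma adjusted p values were 0.00577 and 0.0162, and Cysltr2 lost its call without Runx1 KO replicate 2.

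Markers of cell types that carry these enzymes also moved. Beside each count of markers stands the share over all genes tested, 10.6% higher and 11.3% lower in limma. Of 11 neutrophil markers, 7 were lower and 0 higher in limma, and their summed level ran from 297778 to 387123 in WT and from 157331 to 213032 in Runx1 KO. Among the defining ones, Ltf, a granule protein of maturing neutrophils, fell from 57832 ± 13538 to 12190 ± 9585 (limma adjusted p 0.0133), while the early granule gene Mpo stood at 75017 ± 5684 and 68125 ± 1732 and did not pass (SD, n = 3, limma adjusted p 0.233). The other defining neutrophil markers, Elane and S100a8, changed by -0.35 and -1.47 and passed. Elane lost its call without WT replicate 1 or Runx1 KO replicate 2 or 3, and Ltf without Runx1 KO replicate 2. Of 9 monocyte and macrophage markers, 3 were lower, and the sum ran from 36818 to 41333 in WT and from 22384 to 29920 in Runx1 KO. Of their defining markers, Adgre1 passed at -0.59 but not without WT replicate 2 or 3 or Runx1 KO replicate 3. Csf1r, Ccr2 and C1qa, at -0.34, -0.52 and -0.53, did not pass in limma, but C1qa passed as lower in DESeq2 (adjusted p 0.0316). These lists move with Alox5 and Ltb4r1, and their part in those changes was not tested.

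Eosinophil markers, listed because Alox15 is known from those cells, had 3 of 9 lower and 1 higher, with sums from 15013 to 23195 in WT and from 8247 to 12902 in Runx1 KO. Epx, eosinophil peroxidase, fell from 5309 ± 1980 to 2048 ± 474, while the receptor gene Siglecf rose from 917 ± 64.0 to 1281 ± 61.3 (SD, n = 3), at limma adjusted p values of 0.0158 and 0.00778. Epx lost its call without Runx1 KO replicate 2. Prg2 and Il5ra, at -0.63 and -0.21, did not pass in limma, but Prg2 passed as lower in DESeq2 (adjusted p 0.0185). WT replicate 2 was the highest in Epx, whereas WT replicate 1 was the highest in Alox15. Of 8 tested basophil and mast cell markers, 6 were lower, and the sum ran from 12632 to 17100 in WT and from 9664 to 12062 in Runx1 KO. Hdc, the most abundant of these markers in both groups, went the other way, at 6503 ± 1077 and 8021 ± 480 (SD, n = 3). It did not pass in limma (adjusted p 0.095), but passed as higher with the replicate block (limma adjusted p 0.0386). Fcer1a, the IgE receptor chain, fell from 252 ± 98.3 to 3.03 ± 1.99 and the protease gene Mcpt8 from 1662 ± 198 to 132 ± 10.4 (SD, n = 3). Prss34, a basophil protease, was read at 4096, 2069 and 2532 in WT and at 5.23, 3.96 and 1.99 in Runx1 KO, whereas Cpa3, a protease shared by mast cells and their progenitors, stood at 1829 ± 113 and 2493 ± 754 (SD, n = 3) and did not pass, its adjusted p in limma being 0.194. Fcer1a, Prss34 and the further marker Cma1 met the filter only in the WT libraries. Gzmb, also among the 6, met it in 3 WT and 2 Runx1 KO libraries. These genes entered the test through WT, so their calls add no support to the count of 6. The part of these cells in Alox15, Ltc4s and Hpgds was not tested.

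Most megakaryocyte and platelet markers moved with the genes that rose. Of 9 tested, 6 were higher and 0 lower in limma, and their sum ran from 3980 to 4992 in WT and from 6118 to 8709 in Runx1 KO. Itga2b, the platelet integrin, rose from 1766 ± 283 to 3041 ± 763 and Gp9 from 125 ± 10.7 to 232 ± 51.7 (SD, n = 3). Pf4, platelet factor, went the other way, at 451 ± 24.3 and 261 ± 121 (SD, n = 3), without overlap between the groups. It did not pass in limma (adjusted p 0.0782) or edgeR, but passed as lower in DESeq2 (adjusted p 0.0427). Itga2b kept its call in 2 of the 6 fits without a library, with limma adjusted p values up to 0.129 in the others, and Gp9 lost its call without Runx1 KO replicate 2. Stem and progenitor markers also rose in 5 of 6 genes, with sums from 16636 to 19156 in WT and from 24855 to 27981 in Runx1 KO. Kit, Procr and Hlf were among the 5, and Mecom, at 0.39, was not. The part of these cells in the rise of Tbxas1 and Alox12 was not tested.

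Lymphoid and erythroid lists were counted too. Of 7 B lymphoid markers 5 were lower in limma, Cd79a and Cd79b among them but not Vpreb1. Cd79a lost its call without Runx1 KO replicate 2, and Cd79b without WT replicate 3 or Runx1 KO replicate 2 or 3. Of 5 T lymphoid markers 1 was lower in limma and 0 in edgeR, and none of Cd3e, Cd3g, Cd3d and Lck passed in either. Lck passed as lower in DESeq2 (adjusted p 0.021). Of 5 erythroid markers 2 were lower in limma, Hbb-bt among them. Klf1 and Epor stood at 0.74 and 0.68 and did not pass in limma (adjusted p 0.0816 and 0.107) or edgeR, but passed as higher in DESeq2 (adjusted p 0.00753 and 0.0281). The erythroid sums overlapped, from 5767 to 9799 in WT and from 4126 to 6187 in Runx1 KO. In none of the lists was a marker at 0 in all 3 Runx1 KO libraries.

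**Figure D5:**
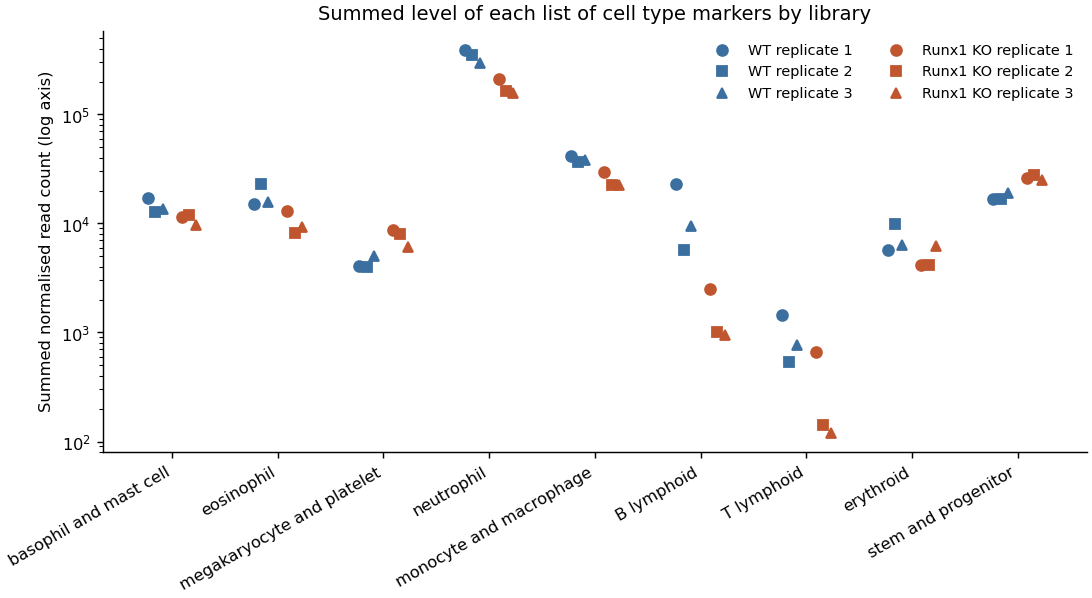
Summed normalised read count (log y axis) of each list of cell type markers in the 3 WT libraries (blue) and the 3 Runx1 KO libraries (orange), with circle, square and triangle for replicates 1, 2 and 3. Neutrophil, monocyte, eosinophil, basophil and B lymphoid sums are lower in every Runx1 KO library than in any WT library, megakaryocyte and stem cell sums are higher, and T lymphoid and erythroid sums overlap.

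For the called genes with the largest changes, the most similar patterns were sought over the 6 libraries, as the Euclidean distance between log2 values after each gene's own mean was removed. Closest to Alox5 among all tested genes was Itgam, the myeloid integrin CD11b, at a distance of 0.33. Itgam was read at 3757, 2561 and 2160 in WT and at 1136, 559 and 568 in Runx1 KO, so that replicate 1 was again the highest of each group. Pilrb2 (0.33) and Gm18251 (0.35) followed. Closest to Alox15 were Stfa1 at 1.28, Dennd2a at 1.76 and its neighbour Alox12e at 1.78, larger distances than those around Alox5. With 6 libraries of 2 groups these distances describe shared levels only.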

How the data were processed

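The authors deposited 1 table per library with a value for each of 20097 genes, a normalised read signal. Per the submitters' processing notes the tools were HISAT2 and HTSeq 0.9.1 and the builds mm10 and GRCm38; the normalization step, annotation and strand setting are not given in the sources used here. Within 0.001, 100% of the deposited values of a library were multiples of its smallest value above 0, and these multiples are the recovered reads. Of the identifiers, 20077 had a symbol and 20 did not. Positions and exon lengths come from GENCODE M21 on GRCm38, and promoters from RefSeq.

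The main test was limma 3.58.1 in R 4.3.3 (mean trend, group as the only term, two-sided, Benjamini-Hochberg adjustment over all genes tested) on log2(normalised read count + 1). Genes entered by filterByExpr of edgeR (minimum count 10, minimum total 15), which kept 15410 and left out 4687. The fits were also run on simulated independent libraries without shared replicate effects, and the outcome is not reported here. An exact permutation test of 3 libraries against 3 was not run, as its smallest two-sided p is 0.1. A floor of 3 reads is 2.88 to 3.14 normalised reads and covers counting error only. Alternatives were edgeR 4.0.16 and DESeq2 1.42.0 on recovered reads, other scalings, pseudocounts of 0.5 and 5, other filters, a replicate block, and leaving out each library.

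The 10 genes, the pathway list and the marker lists were chosen with earlier results of these data known. Named were all 10 genes, every pathway gene past the threshold, the first 4 markers of each list (some are not reported here), the 3 most alike genes of the 2 called genes with the largest changes, and Runx1 and Kit. Genes named beside these (overlapping and neighbouring genes, the most alike genes of Ptgs2) were added after values were seen.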

Additional observations from a re-analysis of the deposited data

How the results depend on the processing

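Among the 11 alternatives that kept all libraries, from 4 to 6 of the 10 genes passed, from 17 to 21 of the wider pathway, from 38 to 49 markers, and from 3182 to 3911 of all genes (main 4, 19, 39 and 3370). Alox5, Lta4h, Alox15 and Tbxas1 passed in all 11. With library totals as scaling, 2 of the 10 genes were higher in place of 1, since Ptgs1 passed, and 63.5% of 3755 calls over all genes were higher, against 48.4% of 3370. The log2 change of Pla2g4a (main -0.02) then turned to 0.0608. Without a library in turn it ran from -0.091 to 0.027, above 0 without WT replicate 2 (0.0192), WT replicate 3 (0.00727) or Runx1 KO replicate 3. The log2 change of Slfn1, named below, ran from -1.13 to 0.0033, above 0 without WT replicate 1.

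Leaving out each library in turn gave from 3 to 5 of the 10 genes, from 1 to 2 higher and from 2 to 4 lower, from 9 to 21 pathway genes, from 23 to 50 markers, and from 1367 to 3597 of all genes. For pathway genes, markers and all genes the lowest count came without Runx1 KO replicate 2 and the highest without Runx1 KO replicate 1. Of the 10 genes, 3 passed without Runx1 KO replicate 2 or 3 and 5 without Runx1 KO replicate 1; 2 were higher without WT replicate 2.

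The replicate numbers are shared between the groups, but deviations of same-numbered libraries correlated at 0.29, 0.13 and -0.01 over all tested genes, so the numbers were not taken as a pairing. WT replicate 2 correlated better with Runx1 KO replicate 3, at 0.23. With the replicate block, 6 of the 10 genes passed in limma and in edgeR, with 5 lower in each, 21 pathway genes in each, and 3843 of all genes in limma and 3685 in edgeR. The added genes were Alox5ap (limma adjusted p 0.0164) and Ptgs2 (limma adjusted p 0.0208). Of the markers named, Itga2b lost its call (limma adjusted p 0.0527), while Hdc, Csf1r, Vpreb1, Cd3d, Lck, Klf1 and Mmp9 passed in limma.

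Depth limits Ltc4s and Alox12e, which rest on a few reads per library; with a mean CPM of at least 1 as the filter, Ltc4s, Alox12e, Ggt1, Stfa1 and Gm18251 gave no value. The promoter count has no alternative.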

Other observations

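The pattern of Ptgs2, high in replicate 1 of each group, was looked for in other genes after its values were seen. By the same distance over the 6 libraries, the closest was Slfn1, a regulator of lymphoid growth, at 0.62, with 1506, 332 and 445 normalised reads in WT and 745, 320 and 240 in Runx1 KO. Bst1, an ectoenzyme of myeloid cells and early B cells, followed at 0.72, with 859, 149 and 174 in WT and 244, 86.2 and 79.6 in Runx1 KO. H2-Q10 followed at 0.78. None of the 3 passed the main test between the groups, at limma adjusted p values of 0.484, 0.257 and 0.339. With the replicate block, Bst1 passed as lower in limma (adjusted p 0.0135) and in edgeR (adjusted p 0.013).

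Near Alox15, Slc16a13, a gene of the monocarboxylate transporter family, rose from 277 ± 36.0 to 390 ± 4.17 normalised reads (SD, n = 3), at an adjusted p of 0.026 in limma.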
